A study of Homo sapiens with 5 samples.

Results

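The genes studied here encode the proteins that write, maintain and remove DNA methylation. There are 10 of them among 20098 annotated protein-coding genes, and they were listed by name. They are the methyltransferases DNMT1, DNMT3A and DNMT3B, the adaptors UHRF1 and UHRF2, the dioxygenases TET1, TET2 and TET3, and the glycosylases TDG and MBD4. ChIP-Seq peaks of 3 transcription factors (TFs), Fra-1, MYC and E2F1, were assigned to them, which gave 44 peaks. Of these, 9 came from 17311 Fra-1 peaks, 6 from 4857 MYC peaks and 29 from 36901 E2F1 peaks.

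All libraries were made from LM2 cells, untreated according to the sample labels, a cultured derivative of the breast cancer line MDA-MB-231 that was selected for metastasis to the lung. Chromatin was crosslinked with 1% formaldehyde and precipitated with an antibody against Fra-1 (a FOS-family subunit of AP-1), c-Myc or E2F1, and 1 input DNA library served as the control for all. The comparison asks which of the TFs occupied each gene, and where. With 1 library per TF there were no replicates, so the spread between cultures is unknown and no p-values are given.

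DNA methylation in mammals is found mostly on cytosines followed by guanine (CpG). DNMT1 copies it onto the new strand after replication, and UHRF1 brings DNMT1 to hemimethylated sites, while DNMT3A and DNMT3B methylate unmodified DNA. TET enzymes oxidise methylcytosine, TDG removes oxidised or mismatched bases, and MBD4 removes thymine and uracil opposite guanine at CpG sites.

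E2F factors control genes of the G1/S transition and S phase, MYC binds E-boxes as a dimer with MAX, and Fra-1 binds AP-1 sites as a dimer with a JUN protein. The sequences below are the sites that the results refer to. All are plus-strand reads of GRCh37 (hg19), written 5′ to 3′. Capitals mark the words searched on both strands, which were TTTCCCGC, TTTGGCGC, TTTCGCGC and TTTGCCGC for E2F, CACGTG for the E-box, and TGACTCA and TGAGTCA for AP-1. A word was counted in a window only when it lay wholly inside it, and distances to a summit are from the middle of the word. A match describes the letters only.

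At DNMT1 an E2F word spanned the annotated start site, and a palindromic pair of E2F words lay downstream, where words on the opposite strands overlap. Each of the pair is marked in a line of its own.
DNMT1 start site, chr19:10305613-10305642: gcgccccggctTTTCGCGCggaaaccgatg
DNMT1 pair, first word, chr19:10305289-10305318: ccacggtccatTTTGGCGCcaaacagcccg
DNMT1 pair, second word, chr19:10305293-10305322: ggtccattttgGCGCCAAAcagcccgggca

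At UHRF1 the window around the first E2F1 summit held E2F words in tandem, a further word lay just upstream of the start site, and the window around the strongest E2F1 summit held another. Both 101-base windows are free of annotated exons.
UHRF1 first summit, chr19:4908939-4909039: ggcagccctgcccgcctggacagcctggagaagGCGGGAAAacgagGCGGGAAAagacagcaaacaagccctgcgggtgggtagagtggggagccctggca
UHRF1 start site, chr19:4909488-4909517: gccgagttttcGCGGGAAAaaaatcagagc
UHRF1 strongest summit, chr19:4909973-4910073: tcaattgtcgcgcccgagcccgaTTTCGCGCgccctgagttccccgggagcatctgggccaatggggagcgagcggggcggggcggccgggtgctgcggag

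E-boxes lay close to a MYC summit at 3 members.
TDG, chr12:104359558-104359587: gctgtcctacatCACGTGacggccagtacg
UHRF1, chr19:4910994-4911023: caggagctgttcCACGTGgagccaggcctg
TET3, chr2:74213037-74213066: aggaagaagtgaCACGTGaaagttgtccct

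AP-1 words lay at the summits of Fra-1 peaks in or near DNMT3A, DNMT3B and TET1, outside annotated exons.
DNMT3A intron, chr2:25524470-25524570: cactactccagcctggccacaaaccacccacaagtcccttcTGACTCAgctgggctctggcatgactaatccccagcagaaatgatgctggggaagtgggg
DNMT3B upstream, chr20:31340720-31340820: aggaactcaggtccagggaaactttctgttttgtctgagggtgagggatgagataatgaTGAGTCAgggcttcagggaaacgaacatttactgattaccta
TET1 intron, chr10:70407820-70407920: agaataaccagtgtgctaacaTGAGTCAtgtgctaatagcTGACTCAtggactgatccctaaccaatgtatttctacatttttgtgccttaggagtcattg

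Fra-1 summits that shared their site with E2F1 held no searched word. The windows of 3 of them are given for comparison.
UHRF1 intron, chr19:4912027-4912127: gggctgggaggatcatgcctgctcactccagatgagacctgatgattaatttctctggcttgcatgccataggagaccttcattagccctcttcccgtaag
DNMT3A upstream, chr2:25572389-25572489: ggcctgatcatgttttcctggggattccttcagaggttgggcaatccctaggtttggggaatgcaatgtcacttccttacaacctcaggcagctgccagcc
DNMT3B intron, chr20:31366403-31366503: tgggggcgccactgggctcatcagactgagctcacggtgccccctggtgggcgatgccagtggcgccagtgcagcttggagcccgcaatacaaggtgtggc

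E2F1 had a promoter peak at all 10 genes, MYC at DNMT1, UHRF1, TET3 and TDG, and Fra-1 at UHRF1 and DNMT3B. A promoter was the stretch from 2 kb upstream to 2.5 kb downstream of any annotated transcription start site (TSS). Over all protein-coding genes, 61.3% had an E2F1 peak in a promoter, 17.8% one of MYC and 13.2% one of Fra-1. UHRF1 was the 1 member with promoter peaks of all 3 TFs, a combination found at 4.67% of protein-coding genes. DNMT1, TET3 and TDG had MYC and E2F1 without Fra-1 (13.1% of genes), and DNMT3B had Fra-1 and E2F1 without MYC (7.67%). DNMT3A, UHRF2, TET1, TET2 and MBD4 had E2F1 only (35.8%).

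The members had more start sites and thus more promoter windows than other genes, with a median of 9.5 start sites against 5 and a median length of 95.9 kb against 27.3 kb. DNMT1 alone had 43 annotated start sites. With only the canonical TSS of each gene, E2F1 peaks were at 9 members (57.4% of genes), MYC peaks at 4 (15.9%) and Fra-1 peaks at 1 (7.23%). The members that dropped out were DNMT3A for E2F1 and DNMT3B for Fra-1. The E2F1 list was also the longest. With each list cut to its 4857 peaks of largest −log10 q, E2F1 peaks were at the promoters of DNMT1, UHRF1, TDG and MBD4 only, 4 of 10, against 25.6% of genes.

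**Figure D1:**
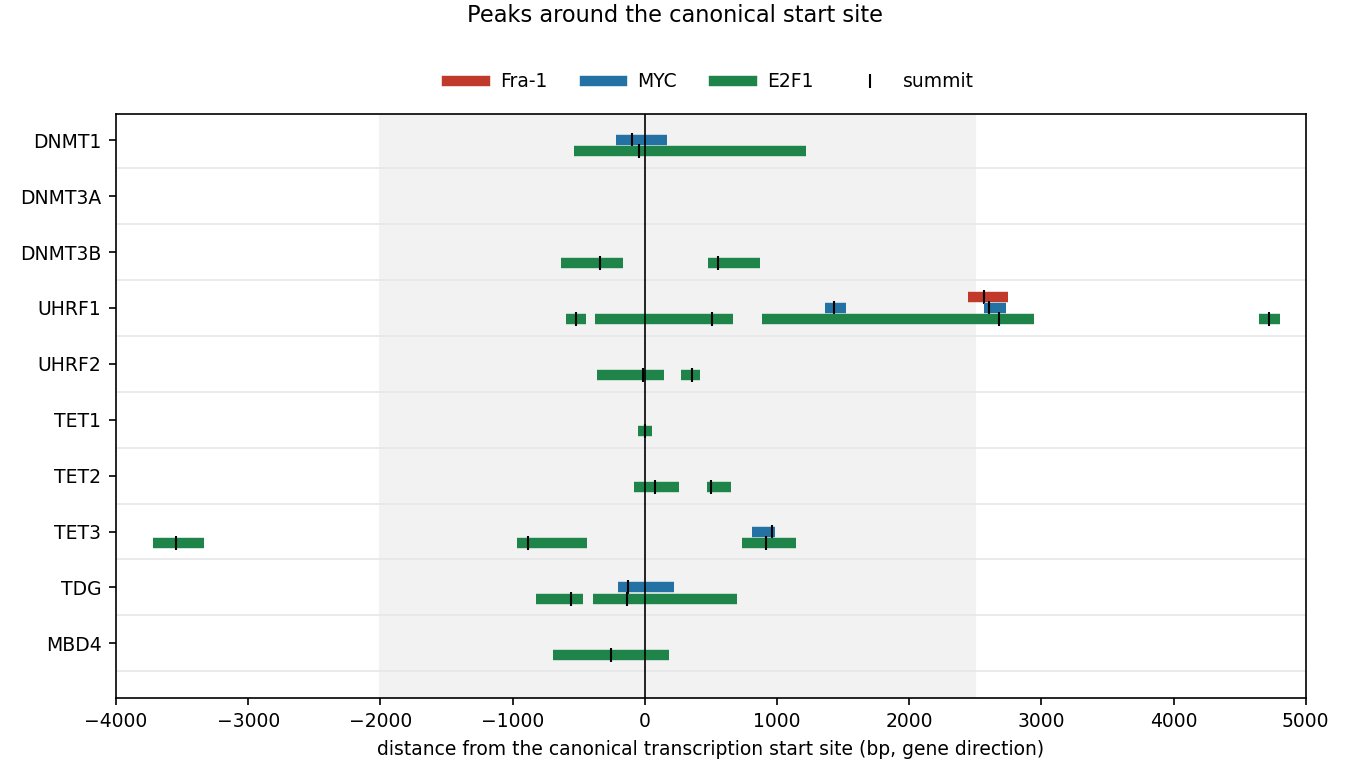
Peaks within 4 kb upstream and 5 kb downstream of the canonical TSS of each gene, with the distance in bp along the gene's direction on the x axis and 1 row per gene. Bars are peaks, ticks are summits, and the shaded band is the promoter window of that TSS. E2F1 bars lie in the band for 9 genes, MYC bars for 4 and a Fra-1 bar for UHRF1, where it reaches the band's downstream edge.

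Strength was measured as fold enrichment, the pileup of fragments at the summit over the local background from the input. The same small constant was added to both before the ratio was taken, so it is not the plain ratio. Intervals are exact 95% Poisson intervals on the fragments at the summit with the background held fixed, and they cover counting error only. The strongest E2F1 promoter peak of a member ranged 9.38-fold, from 6.42 at TET1 to 60.2 at DNMT1. The median of the 10 was 19.6, against 22.0 for the 12321 protein-coding genes with such a peak (interquartile range 13.4 to 32.5). Of the members, 5 were above that median and 4 above the upper quartile. This count depended on the measure. By pileup in place of fold enrichment, DNMT1 and TDG lay at the 87.1 percentile, UHRF1 at 78.4 and MBD4 at 66.1, below the upper quartile.

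Genes that add and genes that remove methylation were found at both ends of the E2F1 order. DNMT1 (60.2) and TDG (59.6) were highest, then MBD4 (38.5) and UHRF1 (37.7), then UHRF2 (22.2), DNMT3B (16.9) and TET2 (16.0). TET3 (8.48), DNMT3A (6.84) and TET1 (6.42) were lowest. Of the 9 pairs of neighbours in this order, 2 had intervals that did not overlap, TDG above MBD4 (1.55-fold) and UHRF1 above UHRF2 (1.7-fold). The intervals of the other neighbours overlapped, and their differences were not tested.

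**Figure D2:**
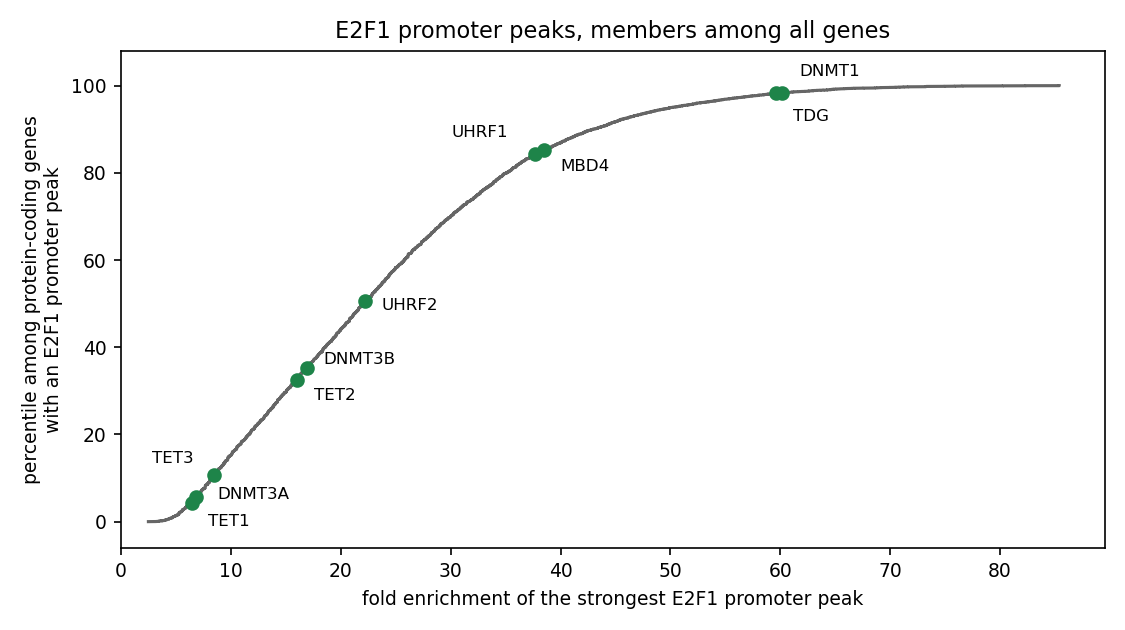
The curve gives, for all protein-coding genes with an E2F1 promoter peak, the fold enrichment of the strongest one (x axis) and its percentile (y axis, %). Points are the 10 members. DNMT1 and TDG lie at the 98.4 and 98.2 percentiles, and TET1 and DNMT3A at the 4.37 and 5.74 percentiles.

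DNMT1, the maintenance methyltransferase (chr19:10244018-10341962, minus strand), had an E2F1 peak of 1758 bp over its canonical TSS, longer than 99.0% of E2F1 peaks. Its summit, 42 bp upstream of the TSS, held 145 fragments, and the fold enrichment was 60.2 (50.9 to 70.7). The E2F word that spans the TSS lay 44 bp from this summit, and the palindromic pair 364 and 368 bp from it. A MYC peak of 390 bp lay wholly inside, with its summit 56 bp from that of E2F1. It had 23 fragments and a fold enrichment of 5.91 (3.94 to 8.61), the 22.1 percentile among MYC promoter peaks of genes. So by fold enrichment the gene stood near the top of the E2F1 list and in the lower part of the MYC list. A second, small E2F1 peak (fold enrichment 5.27) lay 36.0 kb upstream near the most upstream of its start sites. It was also in the promoter window of S1PR2, a sphingosine-1-phosphate receptor gene, whose TSS was 334 bp away. No Fra-1 peak was found in or within 10 kb of DNMT1.

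UHRF1, which recognises hemimethylated DNA (chr19:4903092-4962165, plus strand), carried 9 of the 44 peaks, more than any other member. Around its TSS E2F1 had 3 promoter peaks. The first, with a summit 524 bp upstream, had a fold enrichment of 8.89 (5.64 to 13.5) and the tandem E2F words 1 and 14 bp from the summit. The second, with a summit 510 bp downstream, was the strongest at 37.7 (31.5 to 44.9), with 125 fragments and an E2F word at 24 bp. The third spanned 2061 bp, longer than 99.5% of E2F1 peaks, and reached 16.6 (13.2 to 20.7) at a summit 2677 bp downstream.

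Inside the third E2F1 peak lay both MYC peaks of UHRF1 and its Fra-1 peak. The first MYC peak, 1428 bp downstream of the TSS, had a fold enrichment of 7.57 (5.19 to 10.8) and an E-box 67 bp from its summit. The second MYC peak had 4.69 (3.25 to 6.59), and its summit lay 39 bp from the Fra-1 summit and 74 bp from that of E2F1. Fra-1 reached 10.4 (7.79 to 13.7) with 49 fragments, the 67.3 percentile among Fra-1 promoter peaks of genes, and 113 bp separated its summit from that of E2F1. This intronic stretch was the 1 place in the 10 genes where peaks of all 3 TFs overlapped. It lay beyond the canonical promoter, since the Fra-1 summit was 2564 bp downstream, and only the peak's edge reached the canonical window. The same summit lay 1690 bp downstream of another annotated start site of UHRF1, inside the promoter window of that site. With windows of 1 kb to either side of any TSS, UHRF1 had no Fra-1 promoter peak and 0 members had all 3, against 3.65% of genes.

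A further E2F1 peak of UHRF1 lay in its intron, 4722 bp downstream (fold enrichment 7.35). A pair of E2F1 peaks in its 3′ flank had summits 527 and 35 bp from start sites of KDM4B, a histone demethylase gene that was named after the values were seen. UHRF2, the close homologue of UHRF1 (chr9:6413151-6507054, plus strand), had E2F1 alone. Its main peak had 73 fragments, its summit 11 bp upstream of the TSS and an enrichment of 22.2-fold (17.5 to 27.8), at the 50.5 percentile of the genes with an E2F1 promoter peak. A second peak 355 bp downstream had 5.86 (3.63 to 9.07). No MYC or Fra-1 peak was found at UHRF2, and no E2F word lay within 100 bp of either summit.

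**Figure D3:**
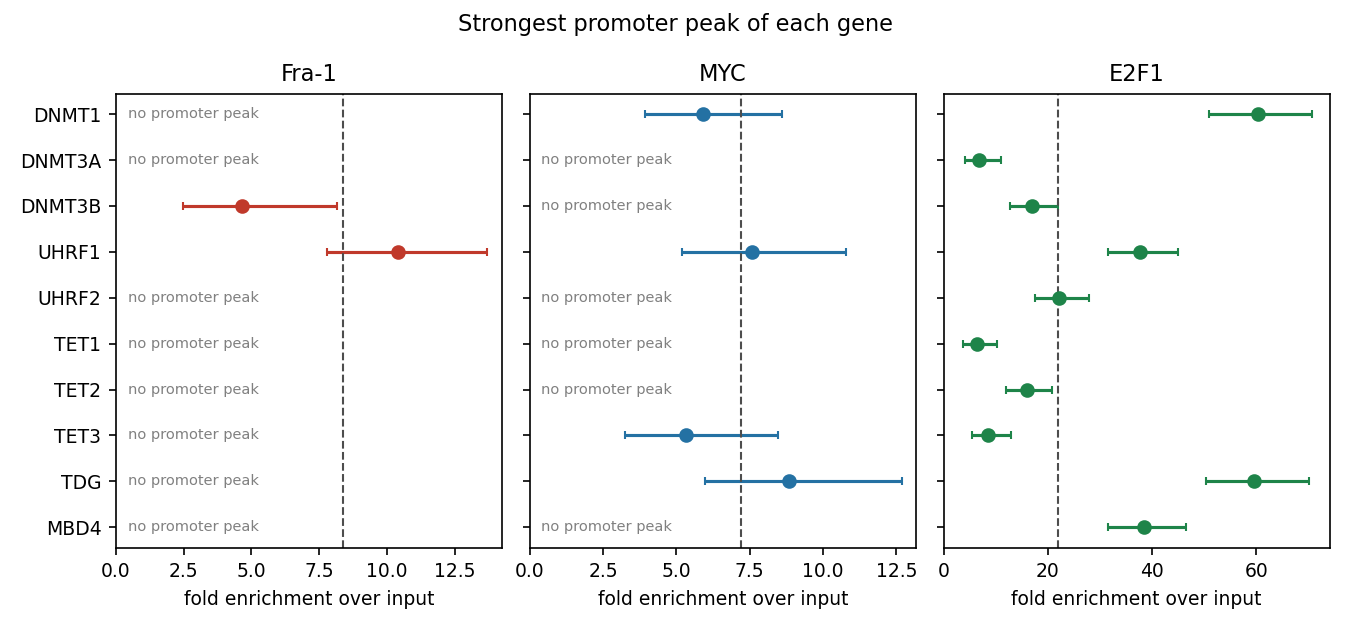
Fold enrichment over input (x axis, linear, a separate scale in each panel) of the strongest promoter peak of each gene in the Fra-1, MYC and E2F1 libraries. Bars are exact 95% Poisson intervals of the fragments at the summit, and dashed lines are the medians of protein-coding genes with a promoter peak (8.38, 7.22 and 22.0). E2F1 values spread from 6.42 to 60.2, whereas the MYC values lie between 5.34 and 8.84.

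The de novo methyltransferases had 5 of the 9 Fra-1 peaks and none of the MYC peaks. Over all protein-coding genes, 33.5% had a Fra-1 peak in a promoter, gene body or 10 kb flank, and 25.0% a MYC peak. These shares were not matched for gene length (115 kb for DNMT3A and 47.0 kb for DNMT3B, against a median of 27.3 kb). DNMT3A (chr2:25450724-25565459, minus strand) had no peak of any TF at its canonical TSS, around which 82.8% of bases were G or C within 500 bp, more than at 99.9% of genes. Its 1 E2F1 promoter peak lay 117 bp inside an internal start site, 89.9 kb downstream, with 14 fragments and a fold enrichment of 6.84 (4.07 to 11.0). Fra-1 had 3 peaks at the gene outside promoters. One in an intron 40.3 kb downstream reached 12.6 (8.58 to 17.8), with an AP-1 word 6 bp from the summit. Another 5.76 kb upstream had 6.32 (3.68 to 10.3), with an AP-1 word at 15 bp.

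The third Fra-1 peak of DNMT3A, 7.64 kb upstream, had 12.8 (8.18 to 19.2), close to the intronic peak. It overlapped an E2F1 peak of 8.07 (5.01 to 12.5), the summits were 3 bp apart, and no searched word lay within 100 bp. DNMT3B (chr20:31350191-31397165, plus strand) had E2F1 peaks to either side of its TSS. The one 339 bp upstream had 54 fragments and 16.9 (12.8 to 21.9), and the one 557 bp downstream had 7.35 (4.8 to 10.9). Fra-1 had a peak 9.42 kb upstream of DNMT3B, with 7.54 (5.04 to 10.9) and an AP-1 word 12 bp from its summit.

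In a DNMT3B intron 16.3 kb downstream, near an internal start site, Fra-1 and E2F1 peaks overlapped with summits 43 bp apart. The Fra-1 peak was weak, with 10 fragments, a fold enrichment of 4.66 (2.49 to 8.15) and a −log10 q of 2.97. It is the only Fra-1 promoter peak of DNMT3B, and requiring a −log10 q of at least 5 or a fold enrichment of at least 5 removed it. The E2F1 peak there had 6.76 (4.37 to 10.1). Among the de novo enzymes, then, E2F1 was at the canonical TSS of DNMT3B and not at that of DNMT3A, where it was at an internal start site. Fra-1 was mostly distant from start sites.

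**Figure D4:**
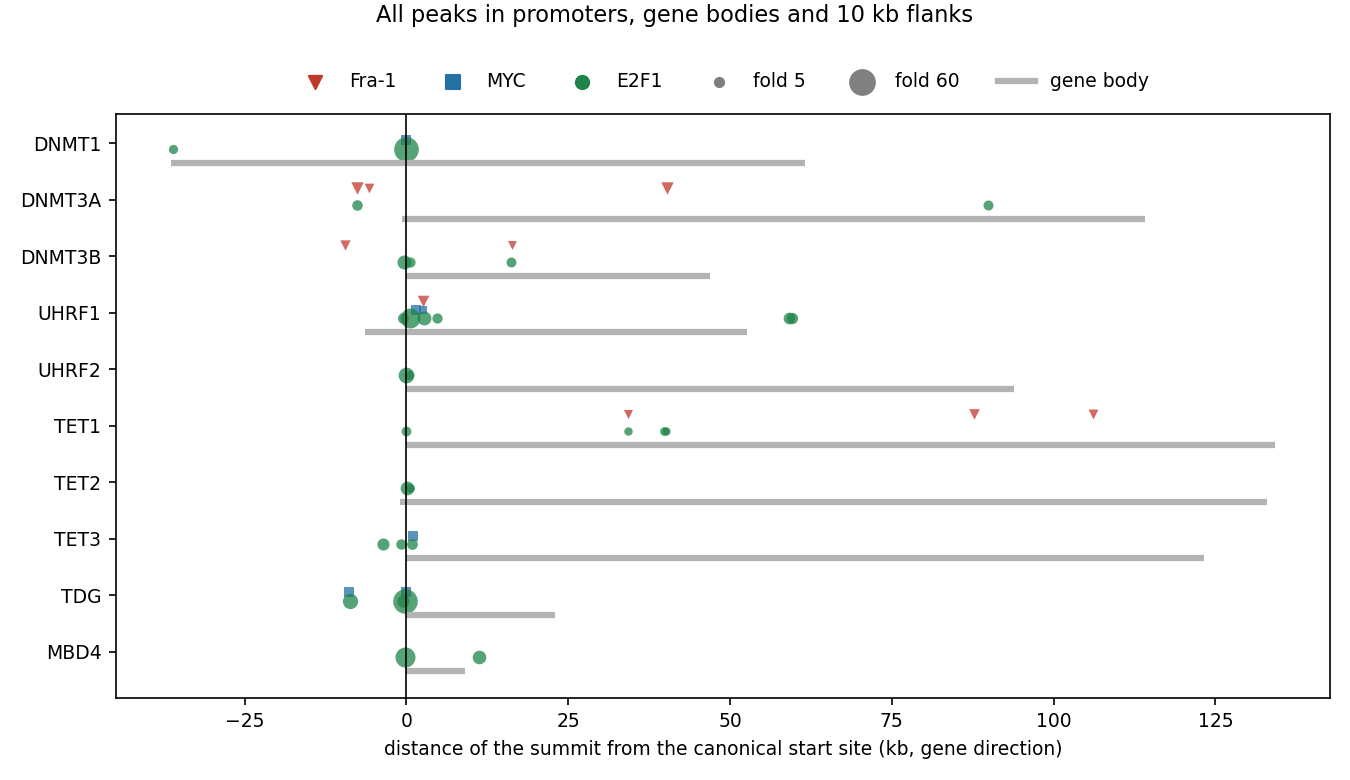
Summits of all 44 peaks by distance from the canonical TSS of each gene (x axis, kb along the gene's direction). Symbol and colour give the TF, area rises with fold enrichment, and grey lines are gene bodies. MYC symbols lie within 3 kb of the canonical TSS, apart from one 8.93 kb upstream of TDG, while Fra-1 symbols at DNMT3A, DNMT3B and TET1 lie 5.76 to 106 kb away.

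The TET dioxygenases had 13 peaks, of which 9 were E2F1. At TET1 (chr10:70320094-70454244, plus strand), which has 1 annotated TSS, the E2F1 summit was 4 bp from it. This peak was among the weakest E2F1 promoter peaks, with 14 fragments and 6.42 (3.82 to 10.3). Within the long introns of TET1 lay 3 Fra-1 and 3 E2F1 peaks, between 34.3 and 106 kb downstream. The Fra-1 peak at 87.8 kb had 8.27 (6.0 to 11.1) and AP-1 words 7 and 26 bp from its summit. The Fra-1 peak at 106 kb had 6.52 (4.67 to 8.88) and an AP-1 word at 18 bp. At 34.3 kb, Fra-1 (5.03, 3.43 to 7.13) and E2F1 (3.84, 2.75 to 5.23) coincided with summits 3 bp apart and no searched word.

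The input background under these 6 intronic TET1 peaks was at least 2.5 to 4.99 fragments, above that of 83.4 to 98.3% of peaks of the same TF. For the other 38 peaks of the 10 genes the lower bound ranged from 0.31 to 2.93 with a median of 0.887. Whether this background bears on the intronic calls at TET1 was not tested.

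TET2 (chr4:106067032-106200973, plus strand) had E2F1 alone, as 2 promoter peaks. The stronger had its summit 79 bp downstream of the TSS, 51 fragments and 16.0 (12.0 to 20.8), the 32.6 percentile of genes with such a peak, and the weaker, 498 bp downstream, had 4.61 (2.66 to 7.63). TET3 (chr2:74212037-74335303, plus strand) was the only TET gene with MYC. Its MYC peak, 965 bp downstream, had 14 fragments and 5.34 (3.25 to 8.47), lay inside an E2F1 peak of 8.48 (5.38 to 12.9), and had an E-box that crossed the edge of the 50 bp window and lay wholly within 100 bp of its summit. At a −log10 q of at least 5 the MYC peaks of TET3 and DNMT1 were lost, which left UHRF1 and TDG, against 12.7% of genes. E2F1 also had peaks 887 bp upstream of TET3 (7.86, 4.99 to 11.9) and 3.55 kb upstream (11.9, 8.35 to 16.6). The latter, outside the promoter window, had the largest E2F1 value of TET3, and the 3 intervals overlapped.

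The glycosylase genes had strong E2F1 peaks at their start sites and no Fra-1 peak, where 33.5% of protein-coding genes had a Fra-1 peak. That share was not matched for gene length, and TDG (23.1 kb) and MBD4 (9.23 kb) were shorter than the median gene (27.3 kb). At TDG (chr12:104359600-104382652, plus strand) E2F1 reached 59.6 (50.4 to 70.0) with 145 fragments, 131 bp upstream of the canonical TSS. The MYC peak of 8.84 (5.97 to 12.7) had its summit 2 bp from that of E2F1, and was the largest MYC value of the 10 genes, at the 73.3 percentile, although its interval overlapped those of the other MYC promoter peaks. By pileup in place of fold enrichment this percentile was 42.2. An E-box lay 51 bp from the MYC summit, 78 bp upstream of the TSS, and no E2F word lay within 100 bp of the E2F1 summit.

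The promoter peaks of TDG were shared with UQCC6, a mitochondrial assembly factor gene on the opposite strand with an alternative start site 33 bp from the E2F1 summit. The canonical TSS of UQCC6, 8657 bp away from that of TDG, had its own E2F1 (20.6) and MYC (5.24) peaks, which fell in the 5′ flank of TDG. MBD4 (chr3:129149790-129159022, minus strand) had 1 E2F1 promoter peak, with 103 fragments and 38.5 (31.5 to 46.5). Its summit lay 21 bp upstream of the nearest MBD4 start site and 4 bp from the TSS of IFT122, a ciliary transport gene on the opposite strand whose canonical TSS was 276 bp from that of MBD4. At such a shared promoter the gene to which the peak belongs cannot be told apart. A second E2F1 peak beyond the 3′ end of MBD4 (15.7, 11.8 to 20.5) lay 98 bp from the TSS of EFCAB12, a neighbour named after the values were seen.

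Every one of the 6 MYC peaks overlapped an E2F1 peak, and each lay wholly within it. Over the genome 96.1% of MYC peaks overlapped an E2F1 peak, so the count of overlaps was near the background. The genome share of MYC peaks lying wholly within one was not computed. In each of the 6 overlaps the E2F1 fold enrichment was larger, from 1.59 times at TET3 to 10.2 times at DNMT1, but the libraries differed in depth and antibody. E2F1 was stronger at genes with a MYC promoter peak, with a median of 32.1 for 3578 such genes against 18.5 for 8743 genes without. The 4 members with MYC had a median of 48.7 (8.48 to 60.2) and the 6 without had 16.4 (6.42 to 38.5), and the ranges overlapped, since TET3 was low and MBD4 high.

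Of the 9 Fra-1 peaks, 4 overlapped E2F1, at DNMT3A, DNMT3B, UHRF1 and TET1, and 61.5% of all Fra-1 peaks did so. The AP-1 word lay within 50 bp of all 5 Fra-1 summits that had no E2F1 peak and of 0 of the 4 that had one. Over all Fra-1 peaks the shares were 58.2% of 6660 and 50.2% of 10651, a much smaller gap. Taking the 9 summits as a whole, 5 had the word, against 53.3% of all Fra-1 summits.

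An E2F word lay within 50 bp of 3 of the 29 E2F1 summits, 1 at DNMT1 and 2 at UHRF1, against 1.68% of all E2F1 summits. All 3 were promoter peaks, as were 19 of the 29, and the share among promoter peaks alone was not computed. No E-box lay wholly within 50 bp of the 6 MYC summits, against 16.8% of all MYC summits. The E-boxes at TET3 and TDG lay partly inside this window. Within 100 bp, 3 of the summits had one, at UHRF1, TET3 and TDG, against 23.7%. In the 1001 bp centred on the canonical TSS, an E2F word was found at DNMT1 and UHRF1 (10.4% of protein-coding genes). An E-box was found there at UHRF1, TET3 and TDG (18.2%) and an AP-1 word at 0 members (9.68%). At UHRF1 and TET3 these were other E-boxes than those near the MYC summits, which lay 1495 and 1014 bp downstream of the TSS. The median G and C share of these stretches was 64.5% for the members and 61.2% for all genes, with DNMT3A (82.8%) and TET3 (80.8%) highest.

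Counting gene bodies and 10 kb flanks as well as promoters, E2F1 peaks were at 10 members (71.9% of genes), and MYC peaks stayed at the same 4 (25.0%). Fra-1 peaks rose from 2 to 4 members, with DNMT3A and TET1 added (33.5%). The shares were not matched for gene length, whose median was 95.9 kb for the members and 27.3 kb for protein-coding genes.

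Genes that work with the 10 members were also read, as a list of 32 in 3 groups. E2F1 had promoter peaks at 30 of them (61.3% of genes), MYC at 12 (17.8%) and Fra-1 at 5 (13.2%). DNMT3L, the cofactor of the de novo enzymes, and USP7, a deubiquitinase that binds DNMT1 and UHRF1, had none of the 3, and both were named after their values were seen. Among 14 readers of methylation and cofactors, 12 had E2F1, with a median fold enrichment of 20.3. For all protein-coding genes with an E2F1 promoter peak the median was 22.0. The largest values were 73.3 at ZBTB4, which binds methylated CpG, and 67.6 at PCNA, the sliding clamp that tethers DNMT1 to replication forks.

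All 10 genes of base excision repair had E2F1 promoter peaks (61.3% of protein-coding genes), with a median of 28.3, and none had Fra-1 (13.2%). NEIL3 (58.5) and UNG (51.1), which are DNA glycosylases like TDG and MBD4, were highest. All 8 genes of methyl donor supply had E2F1 (61.3% of protein-coding genes), with a median of 37.6. MAT2A, which makes S-adenosylmethionine, reached 61.1 and SHMT2, a mitochondrial serine hydroxymethyltransferase, 46.1. AHCY, which clears S-adenosylhomocysteine, was the 1 gene of the 32 with all 3 TFs (4.67% of protein-coding genes). Its fold enrichments were 38.9 for E2F1, 8.17 for MYC and 8.4 for Fra-1.

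MACS2 kept between 12931227 tags for Fra-1 and 23853621 for MYC, and 10758036 for the input. Because of this difference in depth, percentiles were taken within each library. For genes without a listed peak, the lists give no value, so an unlisted peak was not detected at this depth and threshold rather than shown to be absent.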

How the data were processed

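LM2 cells were profiled by ChIP-Seq for Fra-1, MYC and E2F1, with 1 library each. EZH2 and the input have no peak list used here. According to the study's methods, reads were trimmed with Trimmomatic, aligned to masked hg19 with Bowtie and deduplicated with Picard. The authors called peaks per library with MACS2 version 2.0.10.20120913 against the input at a q-value cutoff of 0.01. The lists deposited by the authors give a signal, which is the summit's pileup of fragments scaled to the input library and cut to whole numbers. The deposited fold enrichment is the scaled pileup plus 1 over the local input background plus 1. P-values and q-values were deposited as −log10.

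Peaks on chromosomes 1 to 22 and X were assigned to GENCODE 44 genes (mapped to GRCh37) by an overlap of at least 1 bp with a promoter, gene body or 10 kb flank. A peak that overlapped a promoter was classed as promoter, and the others were classed by their summit as exon, intron or flank. The percentile of a gene is that of its strongest promoter peak among protein-coding genes with one. The fragment number at a summit is the smallest that gives the deposited pileup under the scaling, and the background, recovered from pileup and fold enrichment, is a lower bound. Named genes are the members, protein-coding genes sharing a member's promoter peak, and, of the partner list, those with all 3 TFs and the 2 per group with the largest E2F1 value; 4 others are marked where named. The members and lists were chosen with earlier results of these data known. Scripts were tested on simulated data. Python 3.11.15, numpy 2.4.6, pandas 2.3.3, pysam 0.24.0 and matplotlib 3.10.9 were used.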

Additional observations from a re-analysis of the deposited data

How the results depend on the processing

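The counts of members, peaks, overlaps and summit motifs and the percentiles were recomputed with 1 choice changed at a time. This gave 61 counts, of which 44 stayed within 1.5 times the reported count and 17 did not. The MYC list set the length of the equal lists, so the counts of MYC alone could not change under that choice. The share of protein-coding genes with a promoter peak under the same setting is given in brackets. A −log10 q of at least 5 left 1 member with a Fra-1 promoter peak (12.0%). It left 2 members with MYC (12.7%) and 2 MYC peaks in all. A fold enrichment of at least 5 left 1 member with Fra-1 (12.5%). Lists of equal length left 1 member with Fra-1 (3.41%) and 4 with E2F1 (25.6%). They left 1 Fra-1 and 4 E2F1 peaks in all, and 2 MYC and E2F1 overlaps with 0 of Fra-1 and E2F1. Windows of 1 kb left 0 members with Fra-1 (9.85%) and 0 with all 3 TFs (3.65%). With 1 start site per gene, 1 member had Fra-1 (7.23%). When each peak had to cover 50% of the other, 2 Fra-1 and E2F1 overlaps and 0 MYC and E2F1 overlaps remained. Within 100 bp of summits, E-boxes were found at 3 MYC and 2 E2F1 summits. Ranking by −log10 q in place of fold enrichment moved 1 of 16 percentiles across the middle (UHRF2 for E2F1), and ranking by pileup moved 2 (UHRF2 for E2F1 and TDG for MYC), the largest shift being 31.1 points. With 1 library per TF no replicate could be left out. The partner list, the counts with gene bodies and flanks, the medians by MYC, the AP-1 split by E2F1 and the motifs around start sites were computed with 1 setting only. Some peaks rested on 10 to 14 fragments (Fra-1 at DNMT3B and DNMT3A, E2F1 at TET2, TET1 and DNMT3A, MYC at TET3), which limits what can be said of the weaker genes.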

Other observations

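The DNMT3B intron where Fra-1 and E2F1 overlapped held the core motif of CTCF, an insulator protein. Both strands of the 50 bp to either side of each summit were read for it after the sequence had been seen, so its presence is a description. It was found at 0.231% of Fra-1 summits and 0.509% of E2F1 summits, and among the members at these DNMT3B summits only.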
